A study of Mus musculus with 16 samples.

Results

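MEC1, an established mouse epicardial cell line, was given small interfering RNA (siRNA) against PRMT1, and poly(A)-enriched RNA was sequenced from cells without TGF-beta and from cells with it. The response of these cells to TGF-beta was taken as the 2 libraries of PRMT1 siRNA with TGF-beta against the 2 libraries of PRMT1 siRNA alone, 4 of the 16 libraries of the series, over all 46348 genes of the deposited table, of which 15335 had enough counts to be tested. The control siRNA groups and the groups given PRMT1 siRNA together with p53 siRNA, each without and with TGF-beta and with 2 libraries per group, were used for comparison. The groups given p53 siRNA alone were not used in the comparisons. The dose and duration of TGF-beta and the siRNA amounts are not given in the sources used here. The 2 libraries of a group are described as biological replicates, with nothing on whether they were separate cultures, so that p-values measure the spread between these libraries. The title of the study places PRMT1, Mdm4 and p53 in 1 pathway of epicardial invasion and fate, and this comparison asks what TGF-beta did in cells already low in Prmt1 RNA.

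The epicardium is the mesothelial sheet on the surface of the heart. TGF-beta binds a pair of receptor kinases that phosphorylate Smad2 and Smad3, which enter the nucleus with Smad4 and switch on target genes, among them inhibitors that damp the signal. In epicardial cells this signal promotes the epithelial-to-mesenchymal transition (EMT), in which cells lose junctions and mesothelial features, deposit matrix and gain contractile proteins of smooth muscle. PRMT1 is an enzyme that methylates arginine residues of histones and other proteins, and Mdm4 is an inhibitor of the transcription factor p53, which restrains the cell cycle.

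Library totals of the 4 libraries ran from 22970799 to 28699681 counts. The targeted gene, Prmt1, lay at 75.1 and 77.7 counts per 1000000 (CPM, scaled by the trimmed mean of M values) in cells given PRMT1 siRNA alone and at 74.8 and 77.8 CPM with TGF-beta. These levels overlapped, and all 4 were below the lowest of the 4 control siRNA libraries, which held 177 and 145 CPM without TGF-beta and 179 and 174 CPM with it. The siRNA lowered this RNA but did not remove it. Of 30 epicardial and mesothelial markers, 21 to 23 were above 1 CPM in each of these libraries, with a summed level of 3681 and 3855 CPM without TGF-beta and 1067 and 1113 CPM with it. Of the markers of other cells, 12 endothelial markers summed to 12.4 to 14.0 CPM, 2 of the 12 being above 1 CPM in each library. The 15 haematopoietic markers summed to 29.5 and 26.8 CPM without TGF-beta and to 12.2 and 10.8 CPM with it, most of it Cd14, and Ptprc, the pan-leukocyte marker, was at 0 without TGF-beta and at 0.161 and 0.0703 CPM with it. The 15 cardiomyocyte markers summed to 3.73 and 4.15 CPM without and to 53.9 and 55.0 CPM with TGF-beta, where nearly all of it was Tnnt2, while Myh6 and Actc1 were at 0 in the 4 libraries.

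A trend with transcript length moved with this response, and its part in the results was not tested. The median log2 change with TGF-beta was 0.30 over 1165 genes whose longest transcript had at most 1000 bases and -0.29 over 771 genes with over 8000 bases, a slope of -0.12 per doubling of length. With control siRNA the slope had the opposite sign, 0.08, and with both siRNAs it was 0.12. The difference between the PRMT1 siRNA and control siRNA responses therefore carried a slope of -0.20. A fit with offsets that flatten each library's length trend, chosen after seeing the data, is given beside results that this trend could touch. It left 7123 of the 7952 calls of the response in the same direction.

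**Figure D1:**
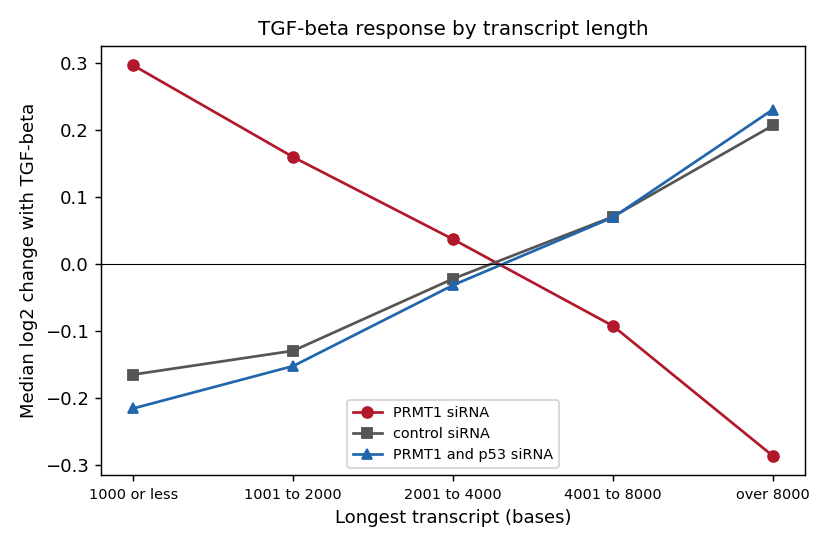
Median log2 change with TGF-beta (vertical axis) in 5 bins of longest-transcript length in bases (horizontal axis) for cells given PRMT1 siRNA, control siRNA or both siRNAs; points are medians over the tested genes of a bin. The PRMT1 siRNA medians go down from 0.30 in the shortest bin to -0.29 in the longest, while those of the other groups go up.

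TGF-beta changed 7952 of the 15335 tested genes in cells given PRMT1 siRNA (51.9%; edgeR quasi-likelihood test, Benjamini-Hochberg adjusted p under 0.05), 4200 of them higher (27.4%) and 3752 lower (24.5%). A change of 2-fold or more was found for 769 genes that rose (5.01%) and 1173 that fell (7.65%). The median change over all tested genes was near 0, at -0.00013 on the log2 scale. With so many genes called, the counts of each gene group below are read against these shares. The treated and untreated libraries did not overlap in any of the 7952 called genes, nor in 12289 of all tested genes (80.1%). Such separation, where stated below, therefore gives no support beyond the call. A gene is followed in parentheses by its log2 change ± SE (edgeR, n = 2 libraries in each group), and every gene written as having risen or fallen passed the test. This SE is the size of the log2 change divided by the square root of the test's F statistic. It rests on the spread estimated over the 12 libraries of the fit, not on the 2 libraries of a group alone. When the p53 siRNA groups, whose 2 libraries with TGF-beta differ more from each other than other replicates do, were added to the fit, 5035 genes were called, 5017 of them among the 7952.

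**Figure D2:**
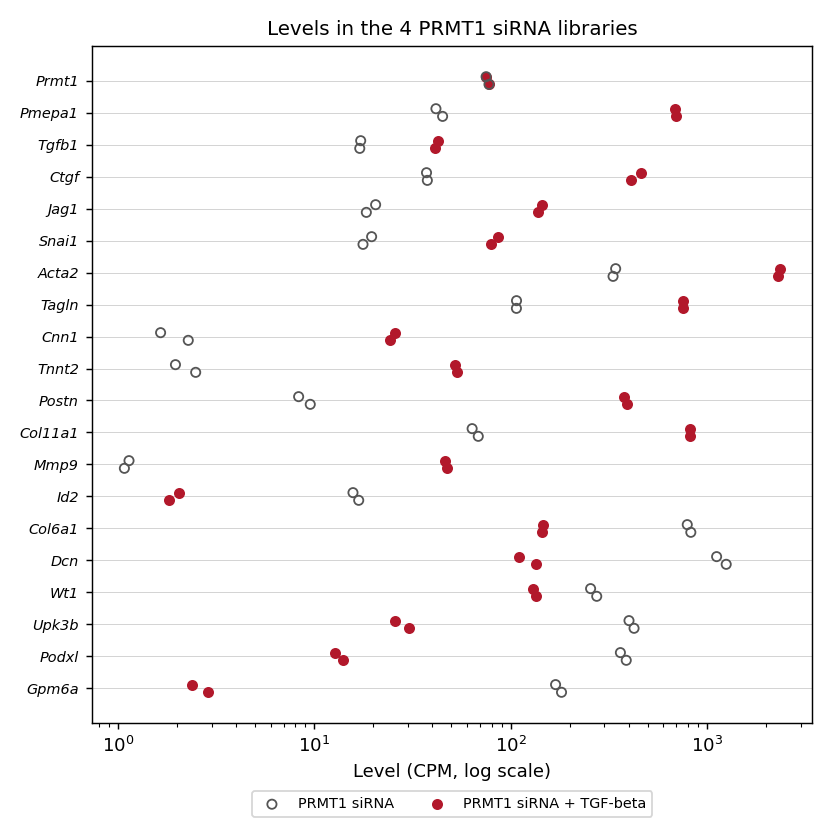
Level of 20 genes in each of the 4 libraries (horizontal axis, CPM, log scale), with open circles for PRMT1 siRNA alone and filled circles for PRMT1 siRNA with TGF-beta. Prmt1 stays at 74.8 to 77.8 CPM in the 4 libraries, while the other genes separate by treatment.

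Genes that carry the signal itself shifted in both directions. Of 26 tested genes for ligands, receptors and Smads, 14 rose and 10 fell, with a median of 0.22. Tgfb1, the ligand with the best-known role in fibrosis, lay at 17.2 and 17.1 CPM without TGF-beta and 42.5 and 41.3 CPM with it. Both treated libraries were above both untreated ones, and the gene rose (1.29 ± 0.06). Ltbp1, which holds the latent ligand in the matrix, rose further (1.73 ± 0.07), as did Ltbp3 (0.75 ± 0.05). The signalling receptor Tgfbr2 fell (-0.70 ± 0.05), and the co-receptor Tgfbr3, betaglycan, fell more, from 149 and 144 CPM to 41.5 and 49.6 CPM (-1.68 ± 0.10). Among related receptors, Acvr1 rose (0.73 ± 0.05), and among ligands Inhbb, an activin subunit, fell (-0.46 ± 0.08). Adjusted p was 0.00059 or less for the called genes named here.

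Feedback inhibitors and early targets rose nearly as a whole: 24 of 27 tested members rose and 1 fell, with a median of 1.15. Pmepa1, which binds Smads and limits the signal, lay at 41.7 and 45.1 CPM without TGF-beta and 687 and 693 CPM with it (3.99 ± 0.08). Ctgf, a matricellular protein, lay at 37.3 and 37.7 CPM without TGF-beta and 462 and 413 CPM with it (3.54 ± 0.10). The treated and untreated libraries of both genes lay far apart relative to the gap between replicates. Smad7, the inhibitory Smad, rose less (0.91 ± 0.07), and so did Skil, which represses Smad targets (1.36 ± 0.06). The Notch ligand Jag1 (2.85 ± 0.07), the sphingosine kinase Sphk1 (2.77 ± 0.11), the secreted matrix protein Tgfbi (2.29 ± 0.08), the transcription factors Junb (1.45 ± 0.08) and Hes1 (1.45 ± 0.10) and the fibronectin receptor subunit Itga5 (1.96 ± 0.06) also rose. Bambi, a decoy receptor, was not called (adjusted p = 0.898), with 10.3 and 12.3 CPM before and 10.6 and 11.6 CPM after treatment. The called genes of this paragraph had adjusted p-values of 6.5e-07 or less.

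The 250 bases before the start site are shown for the 3 of these targets with the largest rise that the RefSeq promoter table held (build GRCm38.p6), since the genes moved together, and for 2 epicardial genes with the largest falls for contrast. Genes of a single chromosome were left out before both choices, so a larger rise or fall there would not be shown. Capitals mark the Smad-binding core CAGAC and the TEAD motif CATTCC on either strand (reverse complements GTCTG and GGAATG), TEAD being the DNA-binding partner of YAP. The windows are chr2:137116521-137116770 on the minus strand for Jag1, chr11:116530850-116531099 on the plus strand for Sphk1 and chr13:56609336-56609585 on the plus strand for Tgfbi. They are chr8:54954478-54954727 on the plus strand for Gpm6a and chr9:18674604-18674853 on the minus strand for Muc16, and all are written 5′ to 3′ along the gene.
Jag1: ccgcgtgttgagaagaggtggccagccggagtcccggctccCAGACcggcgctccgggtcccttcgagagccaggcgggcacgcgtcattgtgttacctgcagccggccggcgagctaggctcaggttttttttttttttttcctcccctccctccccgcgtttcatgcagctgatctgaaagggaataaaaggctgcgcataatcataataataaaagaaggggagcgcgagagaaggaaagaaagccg
Sphk1: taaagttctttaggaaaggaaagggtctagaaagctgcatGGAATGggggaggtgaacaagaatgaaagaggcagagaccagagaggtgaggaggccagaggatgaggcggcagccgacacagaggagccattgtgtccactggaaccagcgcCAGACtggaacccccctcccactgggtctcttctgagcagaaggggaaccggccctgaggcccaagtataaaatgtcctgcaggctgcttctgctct
Tgfbi: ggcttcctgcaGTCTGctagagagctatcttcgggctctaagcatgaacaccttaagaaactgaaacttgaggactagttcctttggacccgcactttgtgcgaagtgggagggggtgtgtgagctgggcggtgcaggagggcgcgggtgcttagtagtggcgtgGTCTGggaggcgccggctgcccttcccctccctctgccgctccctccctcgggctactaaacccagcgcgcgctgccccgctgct
Gpm6a: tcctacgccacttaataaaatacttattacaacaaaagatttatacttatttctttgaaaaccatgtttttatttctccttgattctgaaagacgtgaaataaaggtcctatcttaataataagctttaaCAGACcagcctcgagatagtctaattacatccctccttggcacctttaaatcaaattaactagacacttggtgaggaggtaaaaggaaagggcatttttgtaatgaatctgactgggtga
Muc16: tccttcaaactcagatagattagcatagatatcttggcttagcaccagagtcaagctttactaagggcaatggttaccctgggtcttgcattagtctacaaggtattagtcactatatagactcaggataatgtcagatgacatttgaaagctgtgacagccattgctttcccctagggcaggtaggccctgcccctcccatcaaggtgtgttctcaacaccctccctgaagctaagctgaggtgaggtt
CAGAC stood once in the Jag1, Sphk1 and Gpm6a windows, 2 times in the Tgfbi window and not in that of Muc16. It is a short motif that 42.2% of the 32851 promoter windows of this length in the table hold. CATTCC, which 12.6% of windows hold, stood once, in the Sphk1 window. A match is a description of these letters and not evidence of binding. For Sphk1 and Gpm6a, which have 5 and 2 annotated starts, the start nearest to the 5′ end of the deposited gene was taken.

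BMP signalling runs beside TGF-beta through other Smads, and the Id genes are its classical targets. Of 15 tested genes for BMP ligands, their antagonists and Id genes, 5 rose and 7 fell (median -0.19). Id2, an inhibitor of helix-loop-helix factors, fell from 15.8 and 16.9 CPM to 2.05 and 1.83 CPM (-3.07 ± 0.12). Bmp4, a ligand, fell as well (-1.79 ± 0.08). The antagonists Fstl3 (2.97 ± 0.10), Grem1 (1.13 ± 0.06) and the follistatin-like gene Fstl1 (1.42 ± 0.06) rose, while Fst, follistatin itself, was not called (-0.12 ± 0.07) except with the length offsets, where it was lower (-0.18, adjusted p = 0.042). Bmp1, a protease that processes procollagen in spite of its name, rose (1.75 ± 0.06). The named changes had adjusted p-values of at most 1.8e-08.

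The transcription factors that drive EMT mostly rose: 10 of 18 tested rose and 2 fell, with a median of 0.36, and with the length offsets 13 rose and 2 fell. Snai1, a repressor of epithelial genes, lay at 19.6 and 17.7 CPM without TGF-beta and 86.3 and 79.7 CPM with it. Its treated libraries were both above its untreated ones, and it rose (2.15 ± 0.07). Snai2 rose less (0.67 ± 0.09). Foxc2, a forkhead factor of mesenchyme, rose from a low level of 2.12 and 1.45 CPM to 23.4 and 20.05 CPM (3.59 ± 0.19). Hmga2, a chromatin protein that Smads induce, rose by 2.22 ± 0.06, the ETS factor Etv4 by 2.63 ± 0.10, Sox9 by 1.16 ± 0.12 and Sox4 by 1.05 ± 0.07. The repressors Zeb1 (0.15 ± 0.09) and Zeb2 (0.17 ± 0.08) were not called, but both were called higher with the length offsets (0.25 and 0.39, adjusted p = 0.0034 and 3.5e-05) and with only the 4 libraries of the comparison (adjusted p = 0.014 and 0.0067). Vim, the intermediate filament vimentin and a usual mesenchymal marker, rose from a high level (0.88 ± 0.09). The highest adjusted p was 6.7e-05 among the genes that changed.

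The contractile program of smooth muscle rose in 20 of 25 tested genes and fell in 1, with a median of 0.99. Acta2, smooth muscle actin, lay at 343 and 333 CPM without TGF-beta and 2350.1 and 2309 CPM with it (2.79 ± 0.09). Tagln, the actin-binding protein transgelin, lay at 107 and 107 CPM without TGF-beta and 758 and 756 CPM with it (2.82 ± 0.08). Cnn1, calponin, lay at 1.65 and 2.28 CPM without TGF-beta and 25.8 and 24.3 CPM with it (3.67 ± 0.22). In each of the 3 genes the libraries with TGF-beta were above those without it by several times the distance between replicates. Other genes of the group that rose were Pdlim7 (1.85 ± 0.08), Myl9, a myosin light chain (2.13 ± 0.10), Cnn2 (1.22 ± 0.07), Csrp1 (1.01 ± 0.06) and Myh9, non-muscle myosin (0.94 ± 0.08). The member that fell was Mylk, myosin light chain kinase (-0.95 ± 0.15). Vcl, vinculin, was not called (0.20 ± 0.08), but was called higher with the length offsets (0.28, adjusted p = 0.0018) and with only the 4 libraries of the comparison (adjusted p = 0.00091). The adjusted p-values of the called genes were 0.00018 or below.

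Tnnt2, cardiac troponin T, a thin-filament protein known as a cardiomyocyte marker, lay at 1.96 and 2.49 CPM without TGF-beta and 51.9 and 53.6 CPM with it. It was among the 20 largest rises of the response (4.57 ± 0.14, adjusted p = 6.9e-11). With control siRNA it began higher, at 20.3 and 18.4 CPM, and reached 90.8 and 107 CPM. The rise under PRMT1 siRNA was larger by 2.21 ± 0.18 on the log2 scale (adjusted p = 3.3e-05), from a lower start, while the treated level was below that with control siRNA. No other cardiomyocyte marker of the list was above 2 CPM in any of the 4 libraries, and Ttn, titin, was the next highest at 1.14 and 0.996 CPM without TGF-beta and 0.564 and 0.633 CPM with it.

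Integrins, the receptors that tie cells to matrix, changed in subunits rather than as a group, with 7 of 16 tested rising and 4 falling (median 0.12). Itgb3, a subunit of vitronectin receptors, rose from 8.09 and 8.55 CPM to 67.5 and 72.7 CPM (3.07 ± 0.08). Itga11, of a collagen receptor, rose from 2.397 and 2.32 CPM to 25.8 and 24.1 CPM (3.40 ± 0.14). Itgb5 (1.93 ± 0.06) and Itgb1, the common partner subunit (0.70 ± 0.06), rose too. The laminin-binding subunits Itga3 (-1.28 ± 0.06) and Itga6 (-1.56 ± 0.08) fell. These changes had adjusted p-values of 5.8e-07 or less.

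Collagen chain genes rose in 14 of 24 tested members and fell in 6 (median 0.47). Col11a1, of a fibril-nucleating collagen, lay at 63.7 and 68.5 CPM without TGF-beta and 819 and 821 CPM with it (3.63 ± 0.07). Col8a2, of a short-chain collagen, rose by 3.56 ± 0.07, and the type V chains Col5a1 (2.15 ± 0.07) and Col5a3 (2.40 ± 0.06) rose. The named type VI chains fell: Col6a1 lay at 794 and 828 CPM without TGF-beta and 147 and 144 CPM with it (-2.48 ± 0.06), and Col6a2 fell by a like amount (-2.86 ± 0.07). Both libraries with TGF-beta were below both without it for the 2 chains. For the chains named here, adjusted p was 7.7e-11 or less.

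Matricellular, adhesive and elastic matrix genes rose in 22 of 36 tested members and fell in 10 (median 0.68). Postn, periostin, a matricellular protein of activated fibroblasts, lay at 8.33 and 9.55 CPM without TGF-beta and 378 and 391 CPM with it (5.43 ± 0.09). Mfap4, a microfibril-associated protein, rose from 0.314 and 0.208 CPM to 25.6 and 27.2 CPM. Spp1, osteopontin (3.77 ± 0.14), the elastic-fibre gene Emilin1 (1.34 ± 0.06) and Has2, a hyaluronan synthase (2.001 ± 0.06), rose. Fn1, fibronectin, already among the most abundant RNAs, rose from 5445 and 5068 CPM to 8416 and 8231 CPM (0.66 ± 0.15), and in the fit with all 16 libraries it was not called. Dcn, decorin, a small leucine-rich proteoglycan, was lower with TGF-beta. It lay at 1121 and 1254 CPM without TGF-beta and 111 and 135 CPM with it (-3.27 ± 0.12). Lum, lumican, lay at 6.21 and 5.98 CPM without TGF-beta and 0.0403 and 0.141 CPM with it, a few counts per treated library. Fmod (-0.28 ± 0.06), Ogn (-0.23 ± 0.05) and the secreted matrix protein Ccdc80 (-2.14 ± 0.08) also fell. The largest adjusted p among the called genes here was 0.0025.

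Of 29 tested genes for matrix proteases, plasminogen activation and their inhibitors, 16 rose and 8 fell (median 0.57). Mmp9, a gelatinase, lay at 1.14 and 1.08 CPM without TGF-beta and 46.5 and 47.4 CPM with it (5.40 ± 0.13). Mmp2, the other gelatinase, lay at 334 and 339.7 CPM without TGF-beta and 1709 and 1829 CPM with it (2.39 ± 0.06), and Mmp14, the membrane protease that activates it, lay at 234 and 233 CPM without TGF-beta and 874 and 888 CPM with it (1.92 ± 0.05). All 3 were higher in both treated libraries than in either untreated one. Mmp3, stromelysin, went from 12.6 and 13.03 CPM to 0.201 and 0.176 CPM (-6.06 ± 0.21). Adamts4, an aggrecanase, rose (2.88 ± 0.07), while its relative Adamts5 fell (-0.71 ± 0.07). Adam19 (1.82 ± 0.07) and the inhibitor Timp1 (1.84 ± 0.07) rose. Adjusted p was at most 2.6e-06 for the called genes.

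Epicardial and mesothelial genes fell in 17 of 26 tested members and rose in 2, with a median of -1.15 (-1.15 also with the length offsets). Gpm6a, a membrane glycoprotein of mesothelium, lay at 169.6 and 182 CPM without TGF-beta and 2.38 and 2.88 CPM with it (-6.05 ± 0.10). Podxl, podocalyxin, a sialomucin, lay at 363 and 388 CPM without TGF-beta and 12.8 and 14.00 CPM with it (-4.81 ± 0.08). Upk3b, an uroplakin of mesothelial surfaces, lay at 401 and 426 CPM without TGF-beta and 25.8 and 30.3 CPM with it (-3.88 ± 0.08). None of these genes had a treated library near an untreated one. The surface protein Lrrn4 (-3.42 ± 0.09) and the retinaldehyde dehydrogenase Aldh1a1 (-2.91 ± 0.08) fell, and the mucin Muc16 went from 2.44 and 1.66 CPM to 0.0403 and 0.0352 CPM, about 1 count in each treated library. Of the transcription factors of the epicardium, Wt1 lay at 256 and 275 CPM without TGF-beta and 129 and 135 CPM with it (-1.004 ± 0.05). Gata6 fell (-1.86 ± 0.05), Hand2 rose (0.54 ± 0.07), and Tbx18 (0.09 ± 0.06) and Gata4 (-0.10 ± 0.06) were not called. In these bulk libraries, fewer cells of a type and less RNA per cell cannot be told apart. Called genes of this paragraph had adjusted p-values of 3.5e-05 or less.

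Junction, keratin and cadherin genes fell in 12 of 20 tested members and rose in 2 (median -0.40). Krt7, a simple-epithelial keratin, fell from 26.05 and 26.2 CPM to 3.06 and 2.99 CPM (-3.11 ± 0.09). The tight junction genes Cldn15 (-3.92 ± 0.20) and Cgn (-1.55 ± 0.06) and the polarity gene Pard6b (-1.96 ± 0.09) fell, and Tjp1, which encodes ZO-1, fell by less (-0.36 ± 0.10), a call that was lost with all 16 libraries and without PRMT1 siRNA replicate 1 (adjusted p = 0.091) or PRMT1 siRNA with TGF-beta replicate 2 (adjusted p = 0.057). The 2 members that rose were the desmosomal genes Jup (0.99 ± 0.05) and Pkp2 (1.29 ± 0.10). Cdh1, E-cadherin, lay below 0.11 CPM in each of the 4 libraries and was not tested. N-cadherin, Cdh2, which mesenchymal cells use, was abundant and not called (-0.01 ± 0.05). Adjusted p was 0.011 or less for the called genes.

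**Figure D3:**
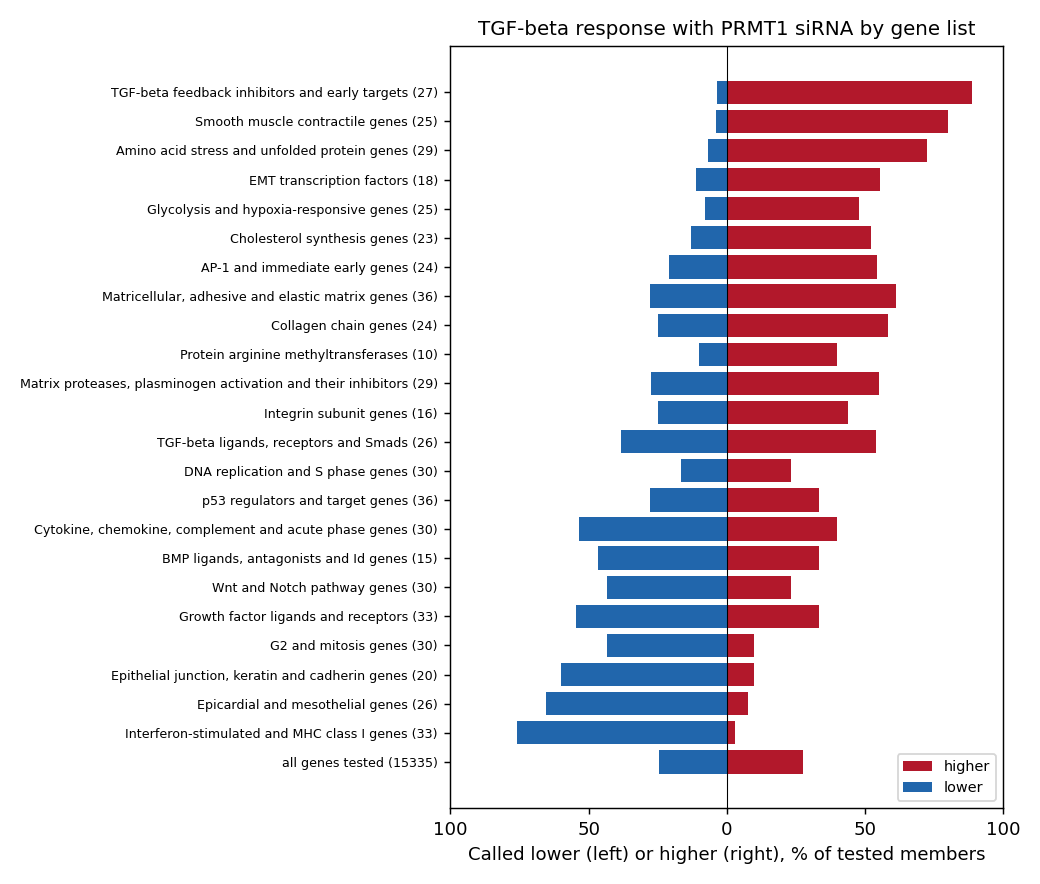
Percent of the tested members of each gene list called higher (right of 0) and lower (left of 0) with TGF-beta in cells given PRMT1 siRNA; the bottom bar holds all 15335 tested genes, 27.4% higher and 24.5% lower. Early targets and smooth muscle genes lie mostly to the right, and interferon and epicardial genes mostly to the left.

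Of the pathway that the study's title names, Mdm4 and Trp53 changed in opposite directions. Mdm4 lay at 128 and 133 CPM without TGF-beta and 84.9 and 82.1 CPM with it. Its treated libraries were both below its untreated ones, and it fell (-0.65 ± 0.09; -0.49 with the length offsets). Trp53, which encodes p53, rose (0.43 ± 0.06). Mdm2, the ubiquitin ligase of p53 and one of its targets, was not called (-0.03 ± 0.05). Cdkn1a, which encodes the cell cycle inhibitor p21, rose (0.35 ± 0.06). Of 36 tested p53 regulators and targets, 12 rose and 10 fell, with a median of -0.01. Gadd45a (2.31 ± 0.09), Plk2 (1.86 ± 0.06) and Cdkn2a (2.58 ± 0.13) rose, and Trp53inp1 (-1.35 ± 0.08), Sesn1 (-0.99 ± 0.09) and Rrm2b, a subunit of ribonucleotide reductase (-0.70 ± 0.08), fell. Among 10 tested arginine methyltransferase genes and their regulators, 4 rose and 1 fell, by at most 0.26 on the log2 scale in either direction, and Prmt1 itself was not called (adjusted p = 0.997). The called share of this list, 50%, was near the 51.9% of all tested genes. Adjusted p was at most 0.00028 for the called genes.

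Genes of mitosis fell more often than they rose. Of 30 tested G2 and mitosis genes, 13 fell and 3 rose, with a median of -0.12, and 15 fell and 2 rose with the length offsets. The called share, 53.3%, was near the 51.9% of all tested genes. With all 16 libraries 8 fell and 1 rose, 30% against 32.5%. Cenpf, a kinetochore protein, lay at 161 and 164 CPM without TGF-beta and 97.5 and 94.7 CPM with it (-0.76 ± 0.12). Ect2, which sets the cleavage plane, lay at 147 and 136 CPM without TGF-beta and 90.4 and 86.8 CPM with it (-0.67 ± 0.06), and its partner in cytokinesis Anln, anillin, fell (-0.50 ± 0.05). The treated and untreated libraries did not overlap in these genes, as in every called gene. Bub1b (-0.46 ± 0.05), the motor Kif11 (-0.40 ± 0.05), Nusap1 (-0.41 ± 0.06) and Top2a (-0.28 ± 0.05) fell, of which Top2a was not called with all 16 libraries. Cdk1, the kinase of mitotic entry, was not called (0.15 ± 0.09), but was called higher with only the 4 libraries of the comparison (adjusted p = 0.0064). Of 30 genes of DNA replication and S phase, 7 rose and 5 fell, a called share of 40% that was below that of all tested genes. The subunits of ribonucleotide reductase moved in opposite directions: Rrm2 rose (0.48 ± 0.07) and Rrm1 fell (-0.31 ± 0.05). Ccne1, cyclin E, rose (0.67 ± 0.10). The called genes had adjusted p-values up to 0.00065.

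Interferon-stimulated and MHC class I genes fell in 25 of 33 tested members and rose in 1 (median -0.55), and with the length offsets 26 fell and none rose. Oas2, a sensor of double-stranded RNA, lay at 128 and 154 CPM without TGF-beta and 28.6 and 37.6 CPM with it (-2.08 ± 0.19). Mx1, an antiviral GTPase, lay at 19.1 and 24.4 CPM without TGF-beta and 5.68 and 5.49 CPM with it (-1.96 ± 0.16). Rsad2, viperin, lay at 152 and 189 CPM without TGF-beta and 75.3 and 82.1 CPM with it (-1.11 ± 0.12). All 3 were lower in both libraries with TGF-beta. Nlrc5, the activator of MHC class I genes (-1.27 ± 0.14), Tap2, a peptide transporter (-0.52 ± 0.07), Oas3 (-1.24 ± 0.13) and Mx2 (-0.84 ± 0.08) fell. Some abundant members did not follow: B2m, the light chain of MHC class I (0.27 ± 0.12), and Isg15, a ubiquitin-like protein (0.22 ± 0.11), were not called, though both were called higher with only the 4 libraries of the comparison (adjusted p = 0.0028 and 0.0074). With the length offsets the change of Isg15 had the opposite sign and was not called (-0.034, adjusted p = 0.74). The highest adjusted p of a called gene named here was 5e-05.

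Cytokine, chemokine, complement and acute phase genes fell in 16 of 30 tested members and rose in 12 (median -0.34). Ptgs2, the prostaglandin synthase COX-2, lay at 89.1 and 89.4 CPM without TGF-beta and 646 and 578 CPM with it (2.78 ± 0.06). C3, the central complement component, lay at 632 and 681 CPM without TGF-beta and 71.9 and 80.6 CPM with it (-3.11 ± 0.09). C4b, another component, lay at 6.17 and 8.47 CPM without TGF-beta and 0.161 and 0.176 CPM with it. The first was higher and the other 2 lower in both libraries with TGF-beta. The complement proteases C1s1 (-2.39 ± 0.08) and C1ra (-2.03 ± 0.08), the acute phase gene Saa3 (-3.35 ± 0.13), the alarmin Il33 (-3.38 ± 0.11) and the neutrophil chemokine Cxcl5 (-2.09 ± 0.12) fell. Adjusted p did not exceed 4.4e-08 for these genes.

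Metabolic groups rose more often than they fell. Amino acid stress and unfolded protein genes rose in 21 of 29 tested members and fell in 2 (median 0.45), among them the one-carbon enzymes Mthfd2 (0.96 ± 0.06) and Shmt2 (0.81 ± 0.07), the proline enzyme Pycr1 (1.03 ± 0.07) and Cth, of cysteine synthesis (1.35 ± 0.12). Hspa5, the chaperone BiP, was not called (-0.06 ± 0.06). Cholesterol synthesis genes rose in 12 of 23 and fell in 3 (median 0.30). Cyp51, a sterol demethylase, rose (0.97 ± 0.06), and the lipid transfer gene Stard4 fell (-0.54 ± 0.06). Glycolysis and hypoxia-responsive genes rose in 12 of 25 and fell in 2 (median 0.21), with 11 rising and 5 falling after the length offsets (median 0.10). The called share of this last list, 56%, was near the 51.9% of all tested genes. With all 16 libraries 5 of its genes rose and 2 fell, 28% against 32.5%. Vegfa, the angiogenic ligand of that list, rose (1.08 ± 0.05). The called genes of these groups that are named had adjusted p-values of 8.2e-06 or less.

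Growth factor ligands and receptors fell in 18 of 33 tested members and rose in 11 (median -0.54). Igf2, a fetal growth factor, lay at 609 and 655 CPM without TGF-beta and 154 and 163 CPM with it (-1.999 ± 0.07). Met, the receptor of hepatocyte growth factor, lay at 253 and 245 CPM without TGF-beta and 59.01 and 62.7 CPM with it (-2.03 ± 0.08). Pdgfrb, the PDGF receptor of mural cells, lay at 51.5 and 51.7 CPM without TGF-beta and 167 and 178 CPM with it (1.74 ± 0.07). Igf2 and Met were lower and Pdgfrb higher in both treated libraries. The ligand Pdgfc rose (1.30 ± 0.05), as did the binding protein Igfbp7 (2.09 ± 0.09), and Igfbp3 (-1.25 ± 0.08), Fgfr2 (-1.33 ± 0.06) and the ligand Fgf7 (-0.96 ± 0.09) fell. Of 30 Wnt and Notch genes, 13 fell and 7 rose (median -0.20): the ligand Wnt4 fell (-3.36 ± 0.13) and Wnt11 rose (3.45 ± 0.15), while the secreted modulators Sfrp1 (-1.26 ± 0.07) and Rspo1 (-0.82 ± 0.08) fell. Of 24 AP-1 and immediate early genes, 13 rose and 5 fell (median 0.38), with rises of Jun (1.10 ± 0.06), Fosl1 (1.07 ± 0.08) and Myc (1.02 ± 0.07) and a fall of Egr1 (-1.33 ± 0.08). For every called gene in this paragraph the adjusted p was at most 4.9e-06.

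Some genes passed from near silence to clear expression. Under a rule of a mean below 0.5 CPM in one condition and at least 5 CPM in the other, 11 genes were switched on and 15 switched off. C1qtnf3, a secreted protein of the C1q family, went from 0.0393 and 0.249 CPM to 46.2 and 45.6 CPM. Acsbg1, an acyl-CoA synthetase, went from 0.236 and 0.332 CPM to 22.4 and 23.00 CPM, and Acan, the cartilage proteoglycan aggrecan, from 0.0786 and 0 CPM to 5.64 and 5.73 CPM. In these genes the untreated libraries held only a few counts, so no fold is given. The Ras-like gene Rasl12 and the receptors Cnr1 and Cmklr1 were switched on as well, at mean levels with TGF-beta of 9.03, 8.74 and 7.02 CPM. Among the genes switched off, Krt15, a keratin, went from 5.54 and 7.26 CPM to 0.0806 and 0.141 CPM, Angptl7 from 7.74 and 9.96 CPM to 0.161 and 0.0703 CPM, and the cornified envelope gene Ppl, periplakin, from 5.66 and 7.14 CPM to 0.242 and 0.0352 CPM. Large falls outside the lists included Pkhd1l1, which lay at 403 and 369.9 CPM without TGF-beta and 4.95 and 6.12 CPM with it (-6.12 ± 0.21), Vat1l (-5.33 ± 0.12) and Smpd3, a sphingomyelinase (-4.33 ± 0.09). Kitl, the ligand of the receptor Kit, fell from 99.7 and 97.2 CPM to 6.404 and 7.24 CPM (-3.85 ± 0.08). Large rises included those of the serotonin receptor Htr2b, from 0.707 and 0.664 CPM to 29.9 and 31.7 CPM (5.48 ± 0.21), the surface protein Cd200 (4.09 ± 0.13), the secreted gene Crispld2 (5.48 ± 0.12), the decoy receptor Tnfrsf11b, osteoprotegerin (4.67 ± 0.15), and Rgs5, known from pericytes (4.31 ± 0.26). The adjusted p-values of the genes in this paragraph were at most 1.6e-07.

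Much of the response was also called in cells given control siRNA, which share no library with it. There 8173 genes were called (53.3%), 26.3% of the tested genes rising and 27% falling. Both responses called 5326 genes, 67.0% of the calls with PRMT1 siRNA, against 53.3% of all tested genes called with control siRNA. These genes were 65.2% of the calls with control siRNA, against 51.9% of all tested genes called with PRMT1 siRNA. Of these 5326, 4923 went the same way and 403 opposite ways. The difference between the responses was itself tested, and 4638 genes differed (30.2%), 2590 with a higher log2 change under PRMT1 siRNA (16.9%) and 2048 with a lower one (13.4%). This count rested on the fit: with the length offsets 3713 differed (24.2%), and 2823 of the 4638 differed in the same direction. With all 16 libraries 322 differed (2.08%), so that counts of gene lists in that fit are read against this lower share. Leaving out single libraries gave 2500 genes (without PRMT1 siRNA with TGF-beta replicate 2), 2601 (without PRMT1 siRNA replicate 1), 2689 (without control siRNA replicate 1) and 2844 (without control siRNA with TGF-beta replicate 1). The genes named below passed in the fit of 12 libraries and with the length offsets, unless stated, and their difference is PRMT1 siRNA minus control siRNA on the log2 scale.

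**Figure D4:**
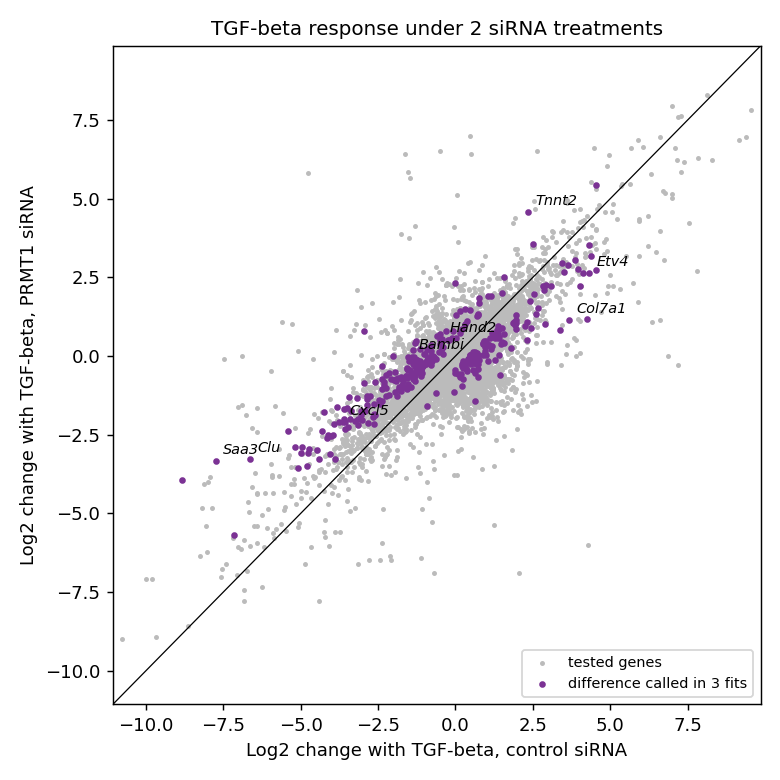
Log2 change with TGF-beta in cells given PRMT1 siRNA (vertical axis) against that in cells given control siRNA (horizontal axis) for the 15335 tested genes; dark points are the 318 genes whose difference was called in the fit of 12 libraries, with length offsets and with all 16 libraries, and the line marks equal change. Labelled genes such as Tnnt2, Clu and Saa3 lie above the line and Col7a1 and Etv4 below it.

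Several genes that TGF-beta lowered in control cells, some of them to near silence, fell less under PRMT1 siRNA. Clu, the secreted chaperone clusterin, was at 302 and 277 CPM with control siRNA and 2.402 and 3.28 CPM after TGF-beta (-6.64 ± 0.14). With PRMT1 siRNA it was at 262 and 286 CPM and 25.6 and 31.2 CPM (-3.27 ± 0.10), a difference of 3.38 ± 0.18 (adjusted p = 4.2e-06). Saa3 went from 99.9 and 78.8 CPM to 0.559 and 0.302 CPM with control siRNA, and with PRMT1 siRNA from 263 and 289 CPM to 24.7 and 29.4 CPM, a difference of 4.39 ± 0.36 (adjusted p = 2.9e-05). The untreated levels of Clu were alike in the 2 siRNA treatments, whereas Saa3 started higher under PRMT1 siRNA. Tnxb, tenascin-X, was left at 0 and 0.0432 CPM, 0 and 1 counts, in treated control cells and at 0.644 and 0.703 CPM in treated PRMT1 siRNA cells. For Tnxb only these treated levels are given, which do not show a smaller fall. The chemokine Cxcl5 (difference 1.55 ± 0.17), the protease C1s1 (1.91 ± 0.12), C3 (0.95 ± 0.13) and the interferon-induced gene Ifi27l2a (2.47 ± 0.29) followed the same order. So did Igf2 (1.15 ± 0.09), Igfbp3 (1.49 ± 0.12), Sfrp1 (1.59 ± 0.10), Rspo1 (1.76 ± 0.13), the matrix gene Islr (2.21 ± 0.19) and the clock output factor Dbp (2.13 ± 0.25). Adjusted p for these differences was 0.00068 or less.

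Among the interferon-stimulated and MHC class I genes, 21 of 33 had a higher log2 change under PRMT1 siRNA than under control siRNA and none a lower one, with a median difference of 0.52. This share was 63.6%, against 30.2% of all tested genes. The count was 21 of 33 with the length offsets as well, against 24.2% of all tested genes. With all 16 libraries it was 2 of 33, 6.06% against 2.08% of all tested genes. With control siRNA 32 of 33 fell. Dhx58, a regulator of RNA sensing, fell under both siRNA treatments, and the difference was 1.13 ± 0.16 (adjusted p = 0.00072). Isg15 fell with control siRNA (-0.69 ± 0.11), was not called with PRMT1 siRNA (0.22 ± 0.11), and differed by 0.91 ± 0.16 (adjusted p = 0.0024). Tap2 (0.89 ± 0.10), B2m (0.91 ± 0.18), and Oas1a (1.02 ± 0.15) differed in the same direction, with adjusted p-values up to 0.0038. Of these 5 genes Isg15, B2m and Oas1a were not called in the difference with all 16 libraries.

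Of 26 epicardial and mesothelial genes, 8 had a higher log2 change under PRMT1 siRNA and 1 a lower one. In this fit the share, 34.6%, was near the 30.2% of all tested genes. The counts were 9 and 1 with length offsets (38.5% against 24.2%) and 6 and none with 16 libraries (23.1% against 2.08%). Hand2, a transcription factor of the cardiac mesenchyme, lay at 125 and 108 CPM and 86.5 and 86.4 CPM in the control cells without and with TGF-beta and at 139 and 140.3 CPM without TGF-beta and 196 and 210.5 CPM with it under PRMT1 siRNA. It fell in the former (-0.43 ± 0.07) and rose in the latter, a difference of 0.97 ± 0.10 (adjusted p = 0.00014). Gata6 (0.76 ± 0.08) and Gata4 (0.67 ± 0.09) fell with control siRNA (log2 changes -2.62 and -0.77), and their differences had adjusted p-values of 0.00066 or less. Bambi was lowered by TGF-beta with control siRNA (-1.42 ± 0.12) and differed by 1.40 ± 0.17 (adjusted p = 0.00031). Matrix genes with a higher log2 change under PRMT1 siRNA were Postn (0.90 ± 0.11), Col8a2 (1.07 ± 0.09), Mmp14 (0.85 ± 0.07), Dcn (1.15 ± 0.16), Fmod (1.02 ± 0.08) and Ogn (0.80 ± 0.07), with adjusted p at most 0.00069. The matrix lists went both ways. Of 24 collagen chain genes, 5 differed upward and 5 downward (41.7%), 12 and 3 with the length offsets and 1 and 1 with 16 libraries. For 36 matricellular, adhesive and elastic matrix genes the counts were 12 and 7 (52.8%), 11 and 5, and 5 and none. For 29 protease and plasminogen genes they were 6 and 5 (37.9%), 6 and 6, and 2 and 2. Postn began lower under PRMT1 siRNA and stayed below the level of treated control cells, 378 and 391 CPM against 749 and 825 CPM.

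**Figure D5:**
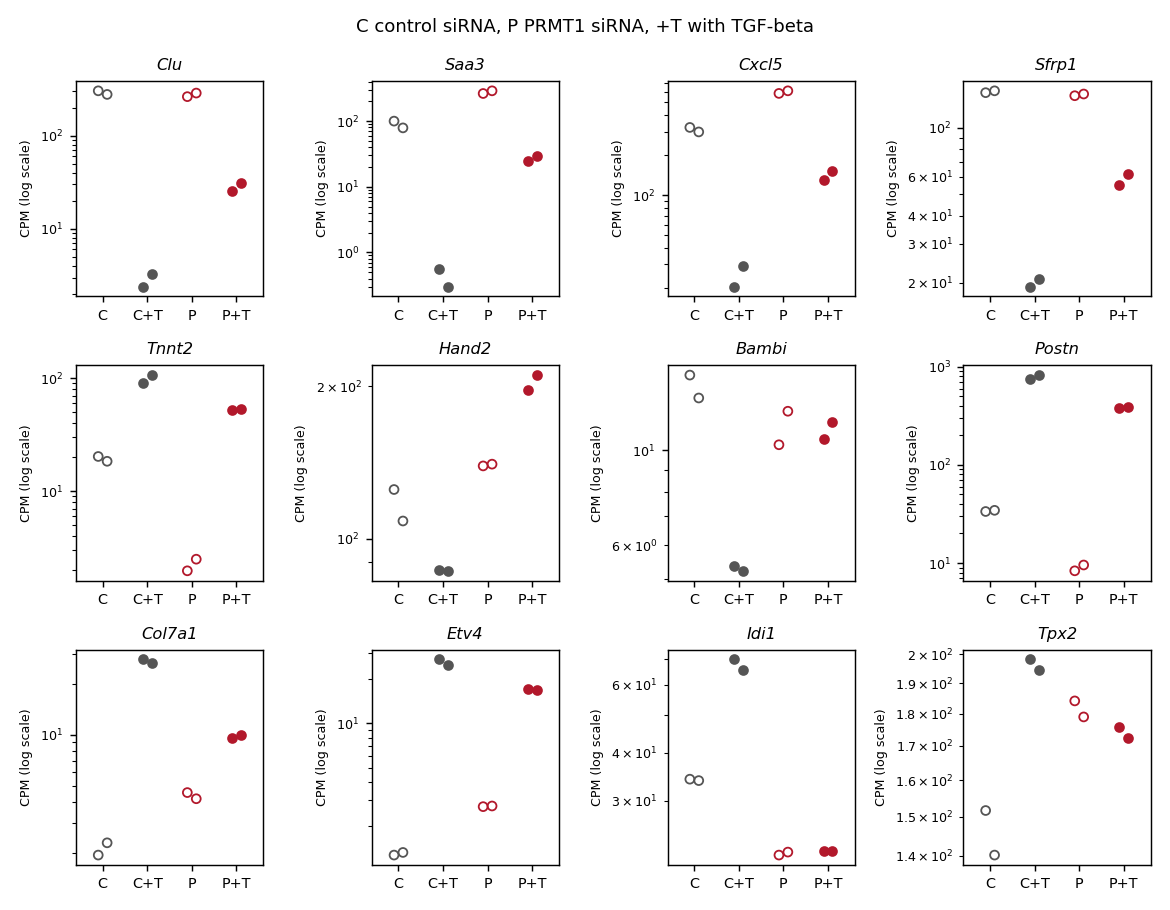
Levels of 12 genes whose TGF-beta response differed between PRMT1 siRNA and control siRNA (vertical axes, CPM, log scale), by library in the 4 groups; open circles are without and filled circles with TGF-beta. Clu in treated cells is at 25.6 and 31.2 CPM with PRMT1 siRNA and at 2.40 and 3.28 CPM with control siRNA.

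Proliferation genes differed in the other direction. Of 30 G2 and mitosis genes, 19 had a lower log2 change under PRMT1 siRNA and none a higher one (median difference -0.36). This was 63.3%, against 30.2% of all tested genes. The counts were 24 and none with the length offsets (80% against 24.2%) and 3 and none with 16 libraries (10% against 2.08%). With control siRNA 19 of these genes rose and 2 fell, against 3 and 13 with PRMT1 siRNA. Tpx2, a spindle assembly factor, rose with control siRNA (0.43 ± 0.05), was not called with PRMT1 siRNA (-0.06 ± 0.05) and differed by -0.49 ± 0.08 (adjusted p = 0.0013). Anln (-0.78 ± 0.07), Kif11 (-0.58 ± 0.07) and Cenpf (-0.93 ± 0.17) differed likewise. Of 30 S phase genes, 10 differed downward and 1 upward, 36.7% against the 30.2% of all tested genes. With the length offsets 15 and 1 differed (53.3% against 24.2%), and with 16 libraries 1 and none (3.33% against 2.08%). Among those that differed downward were Uhrf1, which maintains DNA methylation (-0.55 ± 0.08), and the polymerase subunits Pola1 (-0.56 ± 0.07) and Pole (-0.76 ± 0.17). Adjusted p-values were 0.0062 or less, and with all 16 libraries Tpx2 and Uhrf1 were called and the other 5 were not.

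Cholesterol synthesis genes differed downward in 15 of 23 members and upward in none (median -0.46), 65.2% against 30.2% of all tested genes. The counts were the same under the length offsets (against 24.2%) and 7 and none with 16 libraries (30.4% against 2.08%). With control siRNA 18 of 23 rose. Idi1, of isoprenoid synthesis, rose with control siRNA (0.99 ± 0.06), lay at 21.6 and 22.04 CPM without TGF-beta and 22.2 and 22.2 CPM with it under PRMT1 siRNA and differed by -0.97 ± 0.09 (adjusted p = 8.7e-05). Lss (-0.67 ± 0.09) and Cyp51 (-0.41 ± 0.08), enzymes of the sterol steps, differed too, with adjusted p at most 0.0043.

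Of the p53 regulators and targets, 13 of 36 had a lower and 5 a higher log2 change under PRMT1 siRNA, 50% against 30.2% of all tested genes. The counts were 13 and 2 with the length offsets (41.7% against 24.2%) and 1 and 1 with 16 libraries (5.56% against 2.08%). Cdkn1a began higher under PRMT1 siRNA, at 86.7 and 80.02 CPM against 29.7 and 27.5 CPM, and reached 104 and 109 CPM against 56.9 and 56.4 CPM, a smaller rise, with a difference of -0.63 ± 0.09 (adjusted p = 0.00069). Mdm4 was not called with control siRNA (adjusted p = 0.519; called lower with the length offsets, -0.19, adjusted p = 0.0067) and differed by -0.58 ± 0.12 (adjusted p = 0.0056). With the length offsets the Mdm4 difference was -0.30 (adjusted p = 0.013), and with all 16 libraries its adjusted p was 0.297. Sesn1, a stress-responsive p53 target, differed upward (0.83 ± 0.13, adjusted p = 0.0012).

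Some targets that TGF-beta induced in control cells rose less under PRMT1 siRNA. Col7a1, of anchoring fibrils, rose from 1.95 and 2.304 CPM to 27.8 and 26.5 CPM with control siRNA and from 4.56 and 4.19 CPM to 9.51 and 9.92 CPM with PRMT1 siRNA, a difference of -2.53 ± 0.18 (adjusted p = 1.3e-05). Etv4 reached 27.2 and 24.8 CPM with control siRNA and 17.1 and 16.7 CPM with PRMT1 siRNA (-1.69 ± 0.17, adjusted p = 0.00015). The protease Pappa (-2.55 ± 0.19), the membrane regulator Fxyd5 (-1.80 ± 0.31), neuroserpin, Serpini1 (-1.80 ± 0.31), Ptgs2 (-1.17 ± 0.09), Ctgf (-0.76 ± 0.14) and Hmga2 (-0.62 ± 0.09) had smaller rises. Of 24 AP-1 and immediate early genes, 6 differed downward and 1 upward, a share (29.2%) near the 30.2% of all tested genes. With the length offsets 11 and none differed (45.8% against 24.2%), and with 16 libraries 3 and none (12% against 2.08%). Among the genes of this list that differed downward were Fosl1 (-0.88 ± 0.14), Dusp6, which dephosphorylates ERK (-0.69 ± 0.11), and Klf4 (-0.81 ± 0.11). Inhbb and Fgf7 differed by -0.83 ± 0.12 and -1.17 ± 0.14, and adjusted p for the differences given without one was 0.0027 or less. The difference was not called for Snai1 (adjusted p = 0.527), and that of Acta2 was upward (0.43 ± 0.12, adjusted p = 0.024) and not called with the length offsets (adjusted p = 0.101), with all 16 libraries (0.362) or, with adjusted p from 0.055 to 0.095, without any 1 of the 4 PRMT1 siRNA libraries, control siRNA replicate 1 or control siRNA with TGF-beta replicate 2.

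Adding p53 siRNA to PRMT1 siRNA gave a response with 7401 calls (48.3%), and 3867 genes differed from the response with PRMT1 siRNA alone (25.2%), a comparison that shares the 4 libraries of PRMT1 siRNA with the one above. The count was 2205 with the length offsets and 6 with all 16 libraries, and it was 952 without replicate 2 of both siRNAs with TGF-beta and 1272 without replicate 1 of PRMT1 siRNA. Of 33 interferon-stimulated and MHC class I genes, 18 had a higher log2 change with PRMT1 siRNA alone and none a lower one (17 and none with the length offsets). Of 30 G2 and mitosis genes, 16 had a lower one and none a higher one (19 and none with the length offsets). With all 16 libraries no gene of either list differed. Of 23 cholesterol synthesis genes, 3 had a lower one and none a higher one, 13% against 25.2%. Some of the genes that set PRMT1 siRNA apart from control siRNA are given side by side for the combined treatment. Clu changed by -3.50 ± 0.10 with both siRNAs, Saa3 by -4.36 ± 0.14, Tnnt2 by 3.69 ± 0.12 and Col7a1 by 1.05 ± 0.11, against -3.27, -3.35, 4.57 and 1.15 with PRMT1 siRNA alone. The difference was called for Saa3, at 1.01 ± 0.18 (adjusted p = 0.0056), and for Tnnt2, at 0.88 ± 0.21 (adjusted p = 0.014). Neither was called with all 16 libraries (adjusted p = 0.333 and 0.364), and Tnnt2 was not called without PRMT1 siRNA replicate 1 (log2 difference 0.70), both siRNAs replicate 1 (0.62) or both siRNAs with TGF-beta replicate 2 (0.85). The difference was not called for Clu (adjusted p = 0.235) or Col7a1 (adjusted p = 0.683). Cdkn1a lay at 38.7 and 36.96 CPM with both siRNAs and at 48.1 and 48.3 CPM with TGF-beta added, below the 86.7 and 80.02 CPM and 104 and 109 CPM of PRMT1 siRNA alone, while the difference between the changes was not called (adjusted p = 0.987). Mdm4 changed by -0.18 ± 0.09 with both siRNAs (adjusted p = 0.098), against -0.65 with PRMT1 siRNA alone, a difference of -0.46 ± 0.12 (adjusted p = 0.019) that was not called with the length offsets (-0.16, adjusted p = 0.175) or with all 16 libraries. It was also not called (adjusted p from 0.051 to 0.090) without any 1 of the 4 PRMT1 siRNA libraries, without both siRNAs replicate 1 or without both siRNAs with TGF-beta replicate 2.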

How the data were processed

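The authors deposited expected counts per gene, for which the submitters' processing notes name TopHat2, Partek and the build mm10; versions, annotation, strand and counting options are not given in the sources used here. Groups came from the sample titles. Counts were rounded and fitted with edgeR 4.0.16 in R 4.3.3 (quasi-likelihood F test, TMM scaling, filterByExpr, 1 mean per group) over the 12 libraries of the control, PRMT1 and combined siRNA groups, leaving 15335 of 46348 genes. The p53 siRNA groups were left out because no comparison uses them and their 2 libraries with TGF-beta differed by a root mean square of 0.805 log2 units, against 0.341 to 0.426 in the other groups. edgeR's common biological coefficient of variation was 0.0617 for 12 libraries, 0.114 for all 16, 0.0602 or 0.0604 without 1 or the other of that pair, and 0.122 without a library of p53 siRNA alone. A gene is called where its p, adjusted by Benjamini-Hochberg over all genes tested, is under 0.05. Library totals of the 12 were 19617874 to 30759317 counts, and replicates differed by a root mean square of 0.337 to 0.418 log2 units.

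The response is PRMT1 siRNA with TGF-beta minus PRMT1 siRNA; differences of responses are contrasts of the same fit. Gene lists (26, with 668 genes) and the genes named were chosen with earlier results of these data known. Named are the 20 largest rises and falls with at least 5 CPM and no overlap, members of each list by adjusted p or level, the largest differences, genes switched on or off, and a fixed set of regulators and markers; a few such genes are not reported here. Other settings were RLE factors, DESeq2 1.42.0, all 16 libraries, no filter on low counts, the libraries of a comparison alone, a replicate block, leaving out each library (the lone library is then assumed to vary like the other groups) and offsets for transcript length within groups. Offsets for length trends across groups were added after seeing the data. Lengths are of the longest GENCODE vM21 transcript, matched for 42003 genes by symbol and 809 by synonym, 96.6% of tested genes having one. The scripts were tested on simulated counts. Promoters are from a RefSeq table of build GRCm38.p6.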

Additional observations from a re-analysis of the deposited data

Results flagged for a closer look

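Of 55 named genes whose TGF-beta response differed between PRMT1 siRNA and control siRNA, 45 kept an adjusted p under 0.05 and the same sign under each of the 16 alternative settings and are listed here with their log2 difference from edgeR. Among secreted, complement and matrix genes the difference was upward for Saa3 (4.39), Clu (3.38), Islr (2.21), C1s1 (1.91), Cxcl5 (1.55), Dcn (1.15), Col8a2 (1.07), Fmod (1.02), C3 (0.95), Postn (0.90), Mmp14 (0.85) and Ogn (0.80). Among signalling genes it was upward for Rspo1 (1.76), Sfrp1 (1.59), Igfbp3 (1.49), Bambi (1.40) and Igf2 (1.15). Among transcription factors it was upward for Dbp (2.13), Hand2 (0.97), Gata6 (0.76) and Gata4 (0.67). It was upward as well for Tnnt2 (2.21), the interferon and antigen genes Ifi27l2a (2.47), Dhx58 (1.13) and Tap2 (0.89), and Sesn1 (0.83).

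The difference was downward among matrix and signalling genes for Pappa (-2.55), Col7a1 (-2.53), Serpini1 (-1.80), Fxyd5 (-1.80), Ptgs2 (-1.17), Fgf7 (-1.17), Inhbb (-0.83), Ctgf (-0.76) and Dusp6 (-0.69). Among regulators it was downward for Etv4 (-1.69), Fosl1 (-0.88), Klf4 (-0.81), Cdkn1a (-0.63) and Hmga2 (-0.62). Among genes of sterol synthesis it was downward for Idi1 (-0.97), Lss (-0.67) and Cyp51 (-0.41), and among proliferation genes for Uhrf1 (-0.55) and Tpx2 (-0.49). The genes were picked for their values in these libraries, so that the list describes them and gives no independent support.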

How the results depend on the processing

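With 2 libraries per group, edgeR weighed the spread of each gene with that shared across genes, and how many genes are called depends on which libraries enter the fit. With all 16 libraries, where the common coefficient of variation was 0.114 against 0.0617, 5035 genes were called in the response, 2530 of them higher, the difference from control siRNA fell to 322 genes (201 higher, 121 lower) and that from both siRNAs to 6. The last was 2205 with offsets for length trends across groups, an alternative chosen after seeing the data. Leaving out 1 library at a time gave 6054 to 6176 calls in the response (3037 to 3317 higher, 2842 to 3045 lower). It gave 6742 to 7970 in the control siRNA response, 2500 to 5620 in the difference from control siRNA (1435 to 3155 higher, 988 to 2465 lower) and 952 to 4528 in that from both siRNAs. The cause of the shifts between libraries left out was not tested. RLE factors, DESeq2, no filter on low counts, the libraries of a comparison alone and length offsets within groups kept these counts within 1.5 times.

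Same-numbered replicates deviated together weakly or not at all. Across the 15 pairs of groups the correlation of their deviations ran from -0.22 to 0.25. It was 0.0011 between PRMT1 siRNA without and with TGF-beta. These values cannot show whether same-numbered libraries were prepared together, which the labels do not say. With a replicate block, 8214 genes were called in the response, 5129 in the difference from control siRNA and 4384 in that from both siRNAs.

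Genes that were not called could change sign: with length offsets across groups the response of Cdh2 was 0.047 and that of Isg15 was -0.034, that of Bambi was 0.051, and the difference from control siRNA of Snai1 was -0.17. The difference from both siRNAs was then -0.0062 for Clu and -0.19 for Cdkn1a, and for Cdkn1a it was -0.020 with DESeq2, RLE factors and all 16 libraries, -0.049 with the libraries of the comparison alone and -0.0011 with length offsets within groups. Prmt1 was at 0.0086 with no filter and 0.00048 with a replicate block. Leaving out single libraries gave responses of -0.057 to 0.032 for Prmt1, -0.16 to 0.096 for Bambi and -0.19 to 0.050 for Mdm4 with control siRNA. It gave differences of -0.0013 to 0.197 for Snai1 from control siRNA, and of -0.078 to 0.046 for Cdkn1a and -0.033 to 0.201 for Col7a1 from both siRNAs. B2m, Isg15, Vcl and Zeb2 were also called higher in the response with no filter and with length offsets within groups, B2m with DESeq2 and Zeb2 with a replicate block. Other calls lost or gained stand beside the genes.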

Other observations

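Further large changes lay outside the gene lists. Megf10, an engulfment receptor, went from 0.668 and 0.374 CPM to 39.1 and 39.7 CPM with TGF-beta in cells given PRMT1 siRNA (6.22 ± 0.15). Sorcs2, a sorting receptor of the sortilin family, lay at 5.54 and 5.02 CPM without TGF-beta and 87.9 and 82.5 CPM with it (4.01 ± 0.09), and Sox8, a transcription factor, went from 0.943 and 1.16 CPM to 14.6 and 14.2 CPM (3.77 ± 0.16). Il1rl1, the receptor of the alarmin Il33, rose (3.95 ± 0.12), whereas Il33 itself fell (-3.38 ± 0.11). Wisp2, of the same family as Ctgf, rose as well (4.45 ± 0.20). Falls of similar size were found for the cytochrome Cyp2s1, which lay at 52.3 and 47.2 CPM without TGF-beta and 1.01 and 0.914 CPM with it (-5.69 ± 0.13), the channel regulator Clca3a1 (-4.70 ± 0.10), the ectoenzyme Bst1 (-4.04 ± 0.18), the glycosyltransferase Gcnt1 (-3.69 ± 0.10), the secreted matrix gene Thsd4 (-4.45 ± 0.16) and Frem1, of basement membranes (-3.84 ± 0.22). The adjusted p-values from edgeR were 1.8e-08 or less. Lack of overlap between treated and untreated libraries was a condition for naming the largest rises and falls, so it gives no further support.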
